A study of Homo sapiens with 9 samples.

Results

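The genes described here encode interleukin-1 and interleukin-6 family cytokines, the colony-stimulating factors and their relatives, together with the shared receptor chain gp130. They are IL1A, IL1B, IL6, IL11, LIF, IL6ST, CSF1, CSF2, CSF3 and IL24, and every probe set whose platform symbol is one of these names was taken. Probe sets for 9 of the 10 genes were found, 21 probe sets in all, of 54675 on the array that read 19775 named genes. CSF2 was the symbol of none of them and was not analysed here. A probe set is a group of short oligonucleotides that reads part of a transcript, and its value is a log2 expression level, on which a difference of 1 is a doubling. Levels are compared between the lines at the same probe set, since those of different probe sets are not on a common scale.

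Affymetrix Human Genome U133 Plus 2.0 arrays were hybridized with RNA of 3 breast cancer cell lines, B6TC and its parents MDA-MB-231 and ZR-75-1, with 3 arrays for each. B6TC is GFP+ and estrogen-independent, and its label names it a fusion line of the others. It was derived by growing B6 cells in nude mice, and B6 came from the bone marrow of 1 mouse that bore an MDA-MB-231 tumor and had been inoculated with ZR-75-1 cells. MDA-MB-231/GFP/Neo is an ER negative breast cancer line resistant to G418, and the cells used were 1 GFP-transfected clone. ZR-75-1/GFP/puro is an ER positive breast cancer line that grows as a tumor only with added estrogen. All lines carry GFP and were cultured in McCoy's 5A medium with serum. The arrays of a line are labeled technical replicates, so the p-values below measure only the spread between hybridizations and not between cultures.

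Interleukin-1α (IL1A) and interleukin-1β (IL1B) signal through the IL1R1 receptor and MyD88 to NF-κB, and IL-1β must be cleaved by caspase-1 before it acts. IL-6, IL-11 and LIF each bind a receptor chain of their own and then gp130, the product of IL6ST, which activates JAK kinases and STAT3. M-CSF (CSF1), GM-CSF (CSF2) and G-CSF (CSF3) drive the growth of macrophages and granulocytes, and IL-24 belongs to the IL-10 family. In breast cancer, IL-6, IL-11 and M-CSF are known for their effects on osteoclasts in bone metastases.

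Over all probe sets, pairs of arrays from 1 line differed by 0.0583 to 0.0885 (median absolute difference, log2). The third B6TC array was within this range, at 0.0583 from the first, the smallest of these differences, and 0.0719 from the second. However, 282 probe sets were high in ZR-75-1 (mean of 8 or more) but not in MDA-MB-231 (mean under 6). Of these, 256 were higher on the third B6TC array than on the mean of the first and second, by a median of 0.30. The like count was not taken for the first or second array. Poly-A spike-in controls had a mean of 9.08 in B6TC, with MDA-MB-231 at 5.68 and ZR-75-1 at 7.54. The SDs within these lines were 0.037, 0.019 and 0.022, so the spike-in difference goes with the line and cannot be told apart from it. The part of the third B6TC array in the results below was not tested. Leaving that array out changed no call of a cytokine probe set, which does not bear on the spike-ins. As a check of the labels, B6TC was below ZR-75-1 at 7 of 7 luminal epithelial markers and above it at 4 of 4 tested mesenchymal markers. MDA-MB-231 gave the same counts against ZR-75-1, so this check cannot tell the labels of B6TC and MDA-MB-231 apart. Markers of macrophages and monocytes, which are common sources of these cytokines, were below 6 in every line (0 of 5 reached it; 3.50 to 5.47 in B6TC, 3.54 to 5.57 in MDA-MB-231 and 3.68 to 5.52 in ZR-75-1), and the leukocyte marker PTPRC was at 3.25, 3.42 and 3.26. Of 3 endothelial markers, PECAM1 reached 6 in B6TC (6.68) and MDA-MB-231 (6.69) but not in ZR-75-1 (5.60). Of 4 fibroblast markers, PDGFRB reached it in MDA-MB-231 only, at 6.01. The T cell markers, 2 in number, were below 6 in every line.

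Probe sets entered the tests if 3 or more of the 9 arrays had a log2 level of 6 or above, as 21095 did. Lines were compared with limma, with p-values adjusted by Benjamini and Hochberg over all of these, and an adjusted p up to 0.05 counted as a call. Of the cytokine genes, 7 had a tested probe set (15 probe sets): IL1B, IL11, LIF, IL6ST, CSF1, CSF3 and IL24. IL1B and CSF3 reached 6 in B6TC only, and IL11, LIF and IL24 only in B6TC and MDA-MB-231, so these genes passed the filter through the lines in which they were high. A gene with several tested probe sets was represented by the one with the highest mean.

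The sequence before the start of a gene is shown for IL1B, which was high in B6TC alone, and for IL11, IL24 and IL6ST. IL11 and IL24 were high in both B6TC and MDA-MB-231 and under 6 in ZR-75-1. IL6ST was higher in both than in ZR-75-1, where it still averaged 9.30 at 212195_at. RefSeq promoters (GRCh38.p14) were held for 7 of the 10 genes, and each line below gives the 250 bases before the start, 5′ to 3′ on the strand of the gene. Capitals mark a match, on either strand, to the AP-1 motif TGANTCA, the STAT motif TTCNNNGAA or the NF-κB consensus.
IL1B, chr2:112836780-112837029, minus strand: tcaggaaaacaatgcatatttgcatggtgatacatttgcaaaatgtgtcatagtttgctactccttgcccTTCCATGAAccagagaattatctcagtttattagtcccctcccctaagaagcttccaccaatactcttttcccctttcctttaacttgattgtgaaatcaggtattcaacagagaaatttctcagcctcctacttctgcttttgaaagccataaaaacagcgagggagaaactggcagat
IL11, chr19:55370464-55370713, minus strand: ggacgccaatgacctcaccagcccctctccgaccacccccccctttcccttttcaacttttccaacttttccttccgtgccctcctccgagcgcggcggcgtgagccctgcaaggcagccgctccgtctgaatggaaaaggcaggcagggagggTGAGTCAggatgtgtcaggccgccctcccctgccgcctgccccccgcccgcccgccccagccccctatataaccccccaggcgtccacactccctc
IL24, chr1:206897193-206897442, plus strand: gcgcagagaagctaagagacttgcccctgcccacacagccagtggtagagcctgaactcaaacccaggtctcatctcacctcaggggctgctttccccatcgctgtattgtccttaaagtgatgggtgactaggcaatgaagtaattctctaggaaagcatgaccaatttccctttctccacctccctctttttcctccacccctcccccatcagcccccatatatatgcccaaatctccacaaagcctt
IL6ST, chr5:55994964-55995213, minus strand: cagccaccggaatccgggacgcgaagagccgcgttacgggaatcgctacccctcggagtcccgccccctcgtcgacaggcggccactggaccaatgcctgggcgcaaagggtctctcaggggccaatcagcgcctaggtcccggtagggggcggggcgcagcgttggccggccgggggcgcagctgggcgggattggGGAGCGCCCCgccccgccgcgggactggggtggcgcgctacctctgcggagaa
The capitals in IL1B are a STAT match 180 to 172 bases before the start, those in IL11 are an AP-1 match 96 to 90 bases before it, and those in IL6ST are an NF-κB match 53 to 44 bases before it. The IL24 sequence held none of these motifs. Of the promoters not shown, both entries of IL1A held AP-1 matches, IL6 an NF-κB match and CSF2 a STAT match. IL1A and IL6 were under 6 in every line, so genes with a match were not all high. Over 34788 RefSeq promoters of the same length, 6.59% held the AP-1 motif, 6.57% the STAT motif and 9.95% the NF-κB consensus. The 3 motifs do not overlap in these sequences, and a match is a description of the letters only.

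IL1B was higher in B6TC than in either parental line. Of the tested genes named at the start, it alone differed from both lines by at least 2-fold. IL1B spans chr2:112829751-112836779 and is read by 2 probe sets. At 205067_at its log2 level was 7.14, 7.21 and 7.02 in B6TC, 5.16, 5.65 and 5.56 in MDA-MB-231 and 5.35, 5.30 and 5.35 in ZR-75-1. Every B6TC array was above every parental array, and the parental lines overlapped. The log2 difference of B6TC from MDA-MB-231 was 1.67 (standard error, SE, 0.11, limma adjusted p = 1.01e-06), or 3.18-fold. From ZR-75-1 it was 1.79 (SE 0.11, limma adjusted p = 8.3e-08), or 3.46-fold.
The other IL1B probe set, 39402_at, gave the same picture. It was at 6.14, 6.45 and 6.22 in B6TC, 4.44, 4.45 and 4.54 in MDA-MB-231 and 4.27, 4.27 and 4.33 in ZR-75-1. The differences were 1.79 from MDA-MB-231 (SE 0.074, limma adjusted p = 7.11e-08) and 1.98 from ZR-75-1 (SE 0.074, limma adjusted p = 1.65e-09). Both parental lines lay under 6 at both probe sets, near background, where a log2 difference may understate a change.
Between the parental lines themselves, IL1B was not clearly different. MDA-MB-231 minus ZR-75-1 was 0.12 at 205067_at (95% interval −0.12 to 0.37, limma adjusted p = 0.311). At 39402_at it was 0.19 and was called (SE 0.074, limma adjusted p = 0.0334), but the call was lost without MDA-MB-231 replicate 2 or 3 or ZR-75-1 replicate 1 or 2, at limma adjusted p = 0.0544, 0.105, 0.0787 and 0.0781. Without MDA-MB-231 replicate 1, the lowest of its line, the difference at 205067_at was 0.27 and was called (limma adjusted p = 0.00284).

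IL1A, which neighbors IL1B on chromosome 2 (chr2:112773925-112784493), did not share this pattern. Its probe set 208200_at was at 4.70, 4.37 and 4.63 in B6TC, 4.43, 4.47 and 4.53 in MDA-MB-231 and 4.45, 4.47 and 4.47 in ZR-75-1. The lines overlapped. At 210118_s_at all 9 arrays lay between 2.65 and 3.11, and neither probe set reached the level at which genes were tested. Without that filter, limma gave a difference of 0.091 between B6TC and MDA-MB-231 at 208200_at (95% interval −0.091 to 0.27, adjusted p = 0.452).

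**Figure D1:**
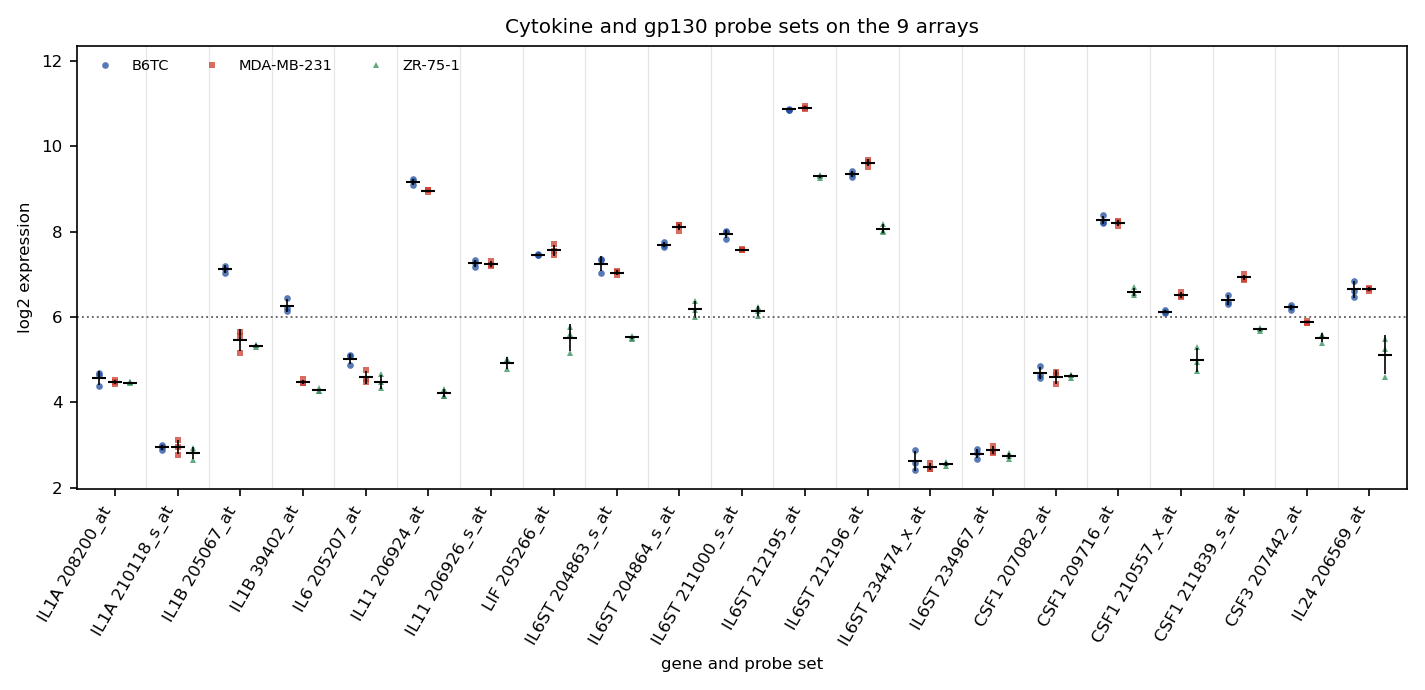
The log2 level (vertical axis) of the 21 cytokine and gp130 probe sets (horizontal axis) on the 9 arrays, with each point an array and the bars the mean and SD of a line (n = 3 arrays). The dotted line is the filter level of 6. IL1B is at 7.02 to 7.21 in B6TC against 5.16 to 5.65 in the parental lines at 205067_at, and IL11 is at 8.94 to 9.24 in B6TC and MDA-MB-231 against 4.16 to 4.32 in ZR-75-1 at 206924_at.

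The other genes of the IL-1 pathway in a chosen list were read beside it. Of 26 genes (receptors, IL-18 and its receptor, IL-33, the IL-36 cytokines, antagonists, caspases and adaptors), 25 were on the array and 10 were tested. Against MDA-MB-231, 7 were higher in B6TC, 2 were lower and 1 was not called, where 65.0% of all 10751 tested genes were called in either direction and 36.5% were higher. The changes were led by IL18, IRAK2, CASP4 and IL1R1.
IL18, an IL-1 family cytokine that caspase-1 also cleaves, was at 7.62, 7.67 and 7.67 in B6TC, 6.72, 6.42 and 6.12 in MDA-MB-231 and 3.44, 3.13 and 3.11 in ZR-75-1. The lines did not overlap, and B6TC exceeded MDA-MB-231 by 1.24 (SE 0.13, limma adjusted p = 2.53e-05) and ZR-75-1 by 4.43 (SE 0.13, limma adjusted p = 3.83e-10).
IRAK2, a kinase that carries the signal from MyD88, was at 7.32, 7.46 and 7.32 in B6TC, 6.24, 6.56 and 6.54 in MDA-MB-231 and 3.92, 4.28 and 4.05 in ZR-75-1, again with no overlap. B6TC exceeded MDA-MB-231 by 0.92 (SE 0.11, limma adjusted p = 3.72e-05) and ZR-75-1 by 3.28. For CASP4, an inflammatory caspase, the excess of B6TC was 0.78 over MDA-MB-231 (SE 0.19, limma adjusted p = 0.00467) and 4.47 over ZR-75-1. CASP1, the caspase that processes IL-1β, was at 6.93, 6.97 and 6.96 in B6TC, 6.64, 6.64 and 6.61 in MDA-MB-231 and 5.34, 5.32 and 5.38 in ZR-75-1, and so had the same order of lines as IL18.
IL1R1, the signaling receptor of both IL-1 cytokines, ran the other way between the parents. It was at 5.96, 6.03 and 6.01 in B6TC, 5.45, 5.35 and 5.25 in MDA-MB-231 and 8.18, 8.09 and 8.15 in ZR-75-1. B6TC lay between the parental lines, 0.65 above MDA-MB-231 (SE 0.057, limma adjusted p = 5.98e-06) and at −2.14 from ZR-75-1 (SE 0.057, limma adjusted p = 1.51e-10). SIGIRR, a receptor that dampens IL-1 signaling, also differed between B6TC and ZR-75-1, at −2.14 (SE 0.048, limma adjusted p = 4.49e-11). Against ZR-75-1 the list was split, with 5 genes higher and 5 lower in B6TC, where 84.4% of all tested genes were called.

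IL11 was the member with the widest range of levels. IL11 lies at chr19:55364382-55370463, and at 206924_at its log2 level was 9.10, 9.24 and 9.19 in B6TC, 8.97, 8.94 and 8.97 in MDA-MB-231 and 4.16, 4.16 and 4.32 in ZR-75-1. ZR-75-1 was far below both other lines, and the B6TC arrays were all slightly above those of MDA-MB-231. The difference from ZR-75-1 was 4.97 in B6TC (SE 0.058, limma adjusted p = 7.13e-13), or 31.2-fold, and 4.75 in MDA-MB-231 (limma adjusted p = 1.14e-12), or 26.9-fold. The ZR-75-1 level was under 6, near background, so these folds may understate the change, as may those of LIF and IL24 against ZR-75-1.
At the other IL11 probe set, 206926_s_at, the levels were 7.26, 7.34 and 7.18 in B6TC, 7.32, 7.22 and 7.19 in MDA-MB-231 and 5.03, 4.77 and 4.97 in ZR-75-1. Here too ZR-75-1 was apart, at a difference of 2.34 from B6TC and 2.32 from MDA-MB-231 (SE 0.072 and limma adjusted p = 4.22e-10 and 4.34e-10), whereas B6TC and MDA-MB-231 overlapped. The 2 probe sets did not give 1 answer on B6TC against MDA-MB-231. The difference was 0.22 at 206924_at (SE 0.058, limma adjusted p = 0.00745) and 0.014 at 206926_s_at (95% interval −0.15 to 0.18, limma adjusted p = 0.872). The mean of both probe sets differed by 0.12 and was not called (limma adjusted p = 0.0824).
By Euclidean distance over the 9 arrays, each probe set centered on its mean, the tested genes outside the lists with the pattern most like that of IL11 at 206924_at were PLA2G4A (distance 0.316), PLAUR (0.319), MXRA7 (0.321), CCDC88A (0.370) and TIMP2 (0.372). All 5 had their lowest level in ZR-75-1 and were high in both other lines, which follows from how they were picked. PLAUR, the urokinase receptor, averaged 9.95 in B6TC, close to 9.80 in MDA-MB-231 and far from 5.18 in ZR-75-1. TIMP2, a metalloproteinase inhibitor, averaged 10.95, 10.65 and 5.74 in the same order of lines.

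LIF, on chr22:30240453-30246759, is read by 1 probe set. Its level was 7.45, 7.48 and 7.45 in B6TC, 7.70, 7.55 and 7.45 in MDA-MB-231 and 5.77, 5.60 and 5.16 in ZR-75-1. The B6TC and MDA-MB-231 arrays overlapped and both lay above ZR-75-1. B6TC exceeded ZR-75-1 by 1.95 (SE 0.13, limma adjusted p = 1.86e-07), or 3.87-fold, and MDA-MB-231 exceeded it by 2.06 (limma adjusted p = 1.2e-07). The difference of B6TC from MDA-MB-231 was −0.10 and was not called (95% interval −0.40 to 0.19, limma adjusted p = 0.509), although robust regression gave −0.087 and called it (limma adjusted p = 0.0336).

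IL6, on chr7:22727200-22731998, was low in every line. Its probe set was at 5.08, 4.89 and 5.11 in B6TC, 4.55, 4.76 and 4.47 in MDA-MB-231 and 4.47, 4.65 and 4.33 in ZR-75-1. The B6TC arrays lay above all parental arrays, which overlapped, but none reached 6 and IL6 was not tested. Without the filter, limma gave 0.43 for B6TC against MDA-MB-231 (SE 0.10, adjusted p = 0.00926) and 0.54 against ZR-75-1 (SE 0.10, adjusted p = 0.0012), where 30.7% and 48.1% of all probe sets were called.

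IL6ST, on chr5:55935095-55994963, encodes gp130, the chain that IL-6, IL-11 and LIF share. Of its 7 probe sets, 5 were tested and the other 2 lay between 2.42 and 2.98 on all arrays. At 212195_at, the probe set with the highest mean, the level was 10.86, 10.86 and 10.88 in B6TC, 10.90, 10.87 and 10.94 in MDA-MB-231 and 9.27, 9.33 and 9.30 in ZR-75-1. The B6TC and MDA-MB-231 arrays overlapped and ZR-75-1 was below them. B6TC was higher than ZR-75-1 by 1.57 (SE 0.041, limma adjusted p = 1.28e-10), or 2.97-fold, and differed from MDA-MB-231 by −0.036 (95% interval −0.13 to 0.056, limma adjusted p = 0.465).
At all 5 tested IL6ST probe sets both other lines exceeded ZR-75-1, B6TC by 1.29 to 1.81 and MDA-MB-231 by 1.44 to 1.93. Against MDA-MB-231 they pointed in both directions. At 204864_s_at the levels were 7.69, 7.75 and 7.64 in B6TC and 8.03, 8.15 and 8.15 in MDA-MB-231, a difference of −0.42 (95% interval −0.61 to −0.22, limma adjusted p = 0.00192). At 211000_s_at they were 7.99, 8.02 and 7.83 in B6TC and 7.57, 7.59 and 7.58 in MDA-MB-231, a difference of 0.37 (95% interval 0.22 to 0.52, limma adjusted p = 0.000807). At both, the arrays of the lines did not overlap, and the intervals lay on opposite sides of 0.
Of the remaining IL6ST probe sets, 212196_at had a difference of −0.26 between B6TC and MDA-MB-231 (SE 0.065, limma adjusted p = 0.00543). The call at 204863_s_at, a difference of 0.21 (limma adjusted p = 0.0405) with overlapping arrays, was lost on leaving out any single array other than B6TC replicate 3, at limma adjusted p = 0.0503 to 0.147. The mean over the 5 probe sets differed by −0.027.

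**Figure D2:**
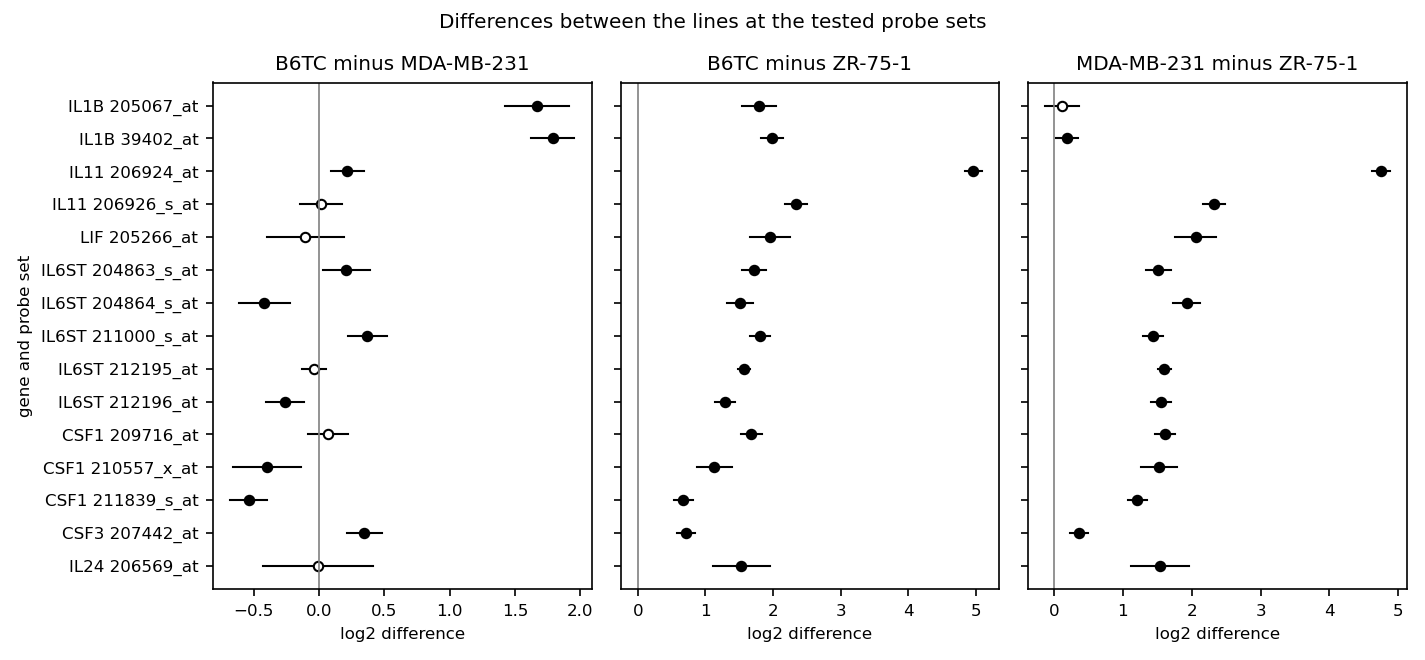
The log2 difference (horizontal axes) at each of the 15 tested probe sets (vertical axis) for B6TC minus MDA-MB-231, B6TC minus ZR-75-1 and MDA-MB-231 minus ZR-75-1. Bars are 95% intervals and filled points were called. Against ZR-75-1 all 15 probe sets are above 0 in B6TC, while against MDA-MB-231 only IL1B exceeds 1 and the probe sets of IL6ST and CSF1 fall on both sides of 0.

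Another list held 25 other genes of the gp130 pathway and related receptors, not all of which use gp130. Of these, 22 were on the array and 15 were tested. In B6TC, 6 were higher than in MDA-MB-231, 2 were lower and 7 were not called, and the count of called genes was 5 without MDA-MB-231 replicate 1 or replicate 3. Over all tested genes 65.0% were called and 36.5% were higher. Against ZR-75-1, 8 were higher, 6 were lower and 1 was not called, where 84.4% of all tested genes were called.
Among the called genes with the largest changes were a pair of receptor chains. IL31RA, the IL-31 receptor chain, was at 8.76, 8.65 and 8.45 in B6TC, 7.68, 7.72 and 7.72 in MDA-MB-231 and 4.33, 4.51 and 4.13 in ZR-75-1. B6TC was 0.91 above MDA-MB-231 (SE 0.099, limma adjusted p = 2.41e-05) and 4.30 above ZR-75-1. IL27RA, the IL-27 receptor chain that pairs with gp130, was at 8.35, 8.30 and 8.37 in B6TC, 7.50, 7.46 and 7.38 in MDA-MB-231 and 6.55, 6.57 and 6.50 in ZR-75-1, so that the 3 lines did not overlap. Its difference from MDA-MB-231 was 0.89 (SE 0.048, limma adjusted p = 2.9e-07). STAT3, the transcription factor that gp130 activates, was higher in B6TC by 0.33 than in MDA-MB-231 (SE 0.052, limma adjusted p = 0.000345) and by 1.69 than in ZR-75-1. PIAS3, an inhibitor of STAT3, averaged 6.89 in B6TC and 6.72 in MDA-MB-231, against 9.42 in ZR-75-1. B6TC was at −2.53 from ZR-75-1 (SE 0.054, limma adjusted p = 3.41e-11). PTPN11, the phosphatase SHP2, differed by 0.36 between B6TC and MDA-MB-231 at its representative probe set, but by −0.20 over the mean of its probe sets.
SOCS3, a target of STAT3 that inhibits gp130, was at 8.02, 8.14 and 7.94 in B6TC, 8.33, 7.93 and 7.91 in MDA-MB-231 and 7.12, 7.16 and 7.21 in ZR-75-1. Like LIF, it overlapped between B6TC and MDA-MB-231 (difference −0.024, limma adjusted p = 0.854) and was higher in both than in ZR-75-1. It was named after its values were seen, as were CASP1 and OSMR.

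The tested receptor chains that bind the cytokines had the opposite parental order to IL11 and LIF. LIFR, the LIF receptor chain, was at 6.27, 6.43 and 6.38 in B6TC, 6.38, 6.49 and 6.49 in MDA-MB-231 and 7.93, 8.08 and 8.07 in ZR-75-1. The B6TC and MDA-MB-231 arrays overlapped (difference −0.093, limma adjusted p = 0.212), and both lay below ZR-75-1, B6TC at −1.67 (SE 0.062, limma adjusted p = 1.71e-09). IL6R, the IL-6 receptor chain, was at 5.63, 5.51 and 5.79 in B6TC, 5.32, 5.61 and 5.06 in MDA-MB-231 and 7.17, 7.13 and 7.05 in ZR-75-1. It was at −1.48 in B6TC from ZR-75-1 (SE 0.12, limma adjusted p = 9.52e-07), and its difference of 0.31 from MDA-MB-231 was called (limma adjusted p = 0.0464) although the arrays overlapped. OSMR, the oncostatin M receptor chain, had the opposite order, at 0.74 above ZR-75-1 in B6TC (SE 0.043, limma adjusted p = 5.12e-08).
Of 13 receptor genes of the members, only IL1R1, IL6R and LIFR reached the level for testing. All 3 were lower in B6TC and in MDA-MB-231 than in ZR-75-1, where 84.4% of all tested genes were called in each comparison. IL6R reached 6 in ZR-75-1 only, and IL1R1 was under 6 in MDA-MB-231. These 2 genes thus passed the filter through the line in which they were high, and the count tests nothing more about them. The remaining 10 were IL1R2, IL1RAP, IL11RA, IL20RA, IL20RB, IL22RA1, CSF1R, CSF2RA, CSF2RB and CSF3R, with line means between 2.73 and 5.66. IL11RA, the IL-11 receptor chain, averaged 5.06 in B6TC, 5.01 in MDA-MB-231 and nearly the same, 4.92, in ZR-75-1. CSF1R, the receptor of M-CSF, was at 5.32, 5.33 and 5.39, and CSF3R, the receptor of G-CSF, at 5.29, 5.66 and 5.62 in the same lines. No receptor of a colony-stimulating factor was thus at a level at which it was tested. The same held for IL11RA, whereas gp130, the chain that IL-11 shares with IL-6 and LIF, was tested.

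**Figure D3:**
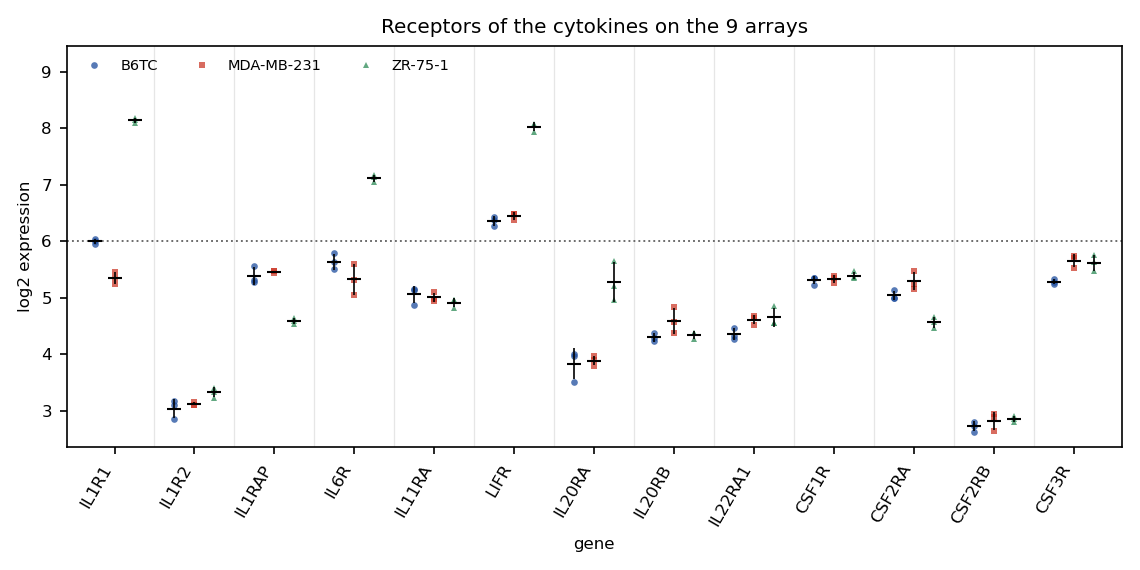
The log2 level (vertical axis) of the 13 receptor genes (horizontal axis), 1 probe set per gene, on the 9 arrays, with the mean and SD of each line (n = 3 arrays) and the filter level of 6 as a dotted line. IL1R1, IL6R and LIFR are above 7 in ZR-75-1 only, and the other 10 are below 6 on average in all lines.

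CSF1 (chr1:109910506-109930992) was higher in B6TC and MDA-MB-231 than in ZR-75-1. At 209716_at, its probe set with the highest mean, the level was 8.20, 8.38 and 8.23 in B6TC, 8.13, 8.25 and 8.23 in MDA-MB-231 and 6.51, 6.69 and 6.56 in ZR-75-1. B6TC overlapped MDA-MB-231 and lay above ZR-75-1, by 1.68 (SE 0.067, limma adjusted p = 2.92e-09), or 3.21-fold. MDA-MB-231 lay above ZR-75-1 by 1.61 (limma adjusted p = 3.92e-09).
The other tested probe sets of CSF1 placed B6TC between the parental lines. At 211839_s_at the levels were 6.30, 6.34 and 6.52 in B6TC, 6.93 ± 0.068 in MDA-MB-231 (SD, n = 3 arrays, the lowest at 6.88) and 5.74, 5.72 and 5.68 in ZR-75-1, with no overlap. B6TC was at −0.54 from MDA-MB-231 (SE 0.063, limma adjusted p = 4.26e-05) and 0.67 above ZR-75-1 (limma adjusted p = 2.68e-06). At 210557_x_at it was at −0.40 from MDA-MB-231 (SE 0.12, limma adjusted p = 0.0131) and 1.13 above ZR-75-1 (limma adjusted p = 5.61e-06). At 209716_at the difference from MDA-MB-231 was 0.068 (95% interval −0.083 to 0.22, limma adjusted p = 0.397). The mean of the 3 probe sets was at −0.29 and was called (limma adjusted p = 0.00293), so the answer for CSF1 depends on the probe set.

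CSF3 (chr17:40015440-40017813) was close to the filter level in all lines. It was at 6.28, 6.24 and 6.16 in B6TC, 5.87, 5.91 and 5.87 in MDA-MB-231 and 5.39, 5.58 and 5.58 in ZR-75-1. The 3 lines did not overlap, and B6TC was the highest. The difference of B6TC was 0.35 from MDA-MB-231 (SE 0.060, limma adjusted p = 0.000586), or 1.27-fold, and 0.71 from ZR-75-1 (SE 0.060, limma adjusted p = 1.14e-06), or 1.63-fold.
Of 12 other genes of the CSF pathway, all on the array, 4 were tested. Against ZR-75-1, 3 were higher in B6TC and 1 was lower, and against MDA-MB-231 none of the 4 was called by limma (0 also at an unadjusted p under 0.05, and 0 with robust regression), where 84.4% and 65.0% of all tested genes were called in these comparisons. With a filter level of 5, 2 of 9 genes were called lower than in MDA-MB-231, and without a filter 1 of 12. KITLG, the ligand of KIT, was at 6.93, 6.83 and 7.14 in B6TC, 6.95, 7.11 and 7.01 in MDA-MB-231 and 10.57, 10.60 and 10.54 in ZR-75-1, at −3.61 from ZR-75-1 in B6TC (SE 0.076, limma adjusted p = 2.9e-11). This was the reverse of CSF1. STAT5B, a transcription factor downstream of the CSF receptors, was 1.51 higher in B6TC than ZR-75-1 (SE 0.067, limma adjusted p = 6.7e-09), and its relative STAT5A and FLT3LG, the FLT3 ligand, were higher by 0.81 and 0.88.

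IL24 (chr1:206897443-206904139) had the same order of lines as LIF. It was at 6.86, 6.47 and 6.61 in B6TC, 6.66, 6.61 and 6.69 in MDA-MB-231 and 4.61, 5.49 and 5.24 in ZR-75-1. The B6TC and MDA-MB-231 arrays overlapped, and ZR-75-1 was below them with the widest spread (SD 0.46, n = 3 arrays). For IL24 the excess of B6TC over ZR-75-1 was 1.53 (SE 0.19, limma adjusted p = 2.28e-05), or 2.89-fold, and its difference from MDA-MB-231 was −0.0063 (95% interval −0.43 to 0.42, limma adjusted p = 0.979).
Of the 10 related genes of the IL-10 family and its receptors, 1 was tested. IL10RB, a receptor chain shared by several of these cytokines, was at 7.19, 7.18 and 7.06 in B6TC, 6.53, 6.31 and 6.54 in MDA-MB-231 and 7.24, 7.10 and 7.20 in ZR-75-1. It overlapped between B6TC and ZR-75-1 and in B6TC it was 0.68 above MDA-MB-231 (SE 0.072, limma adjusted p = 2.02e-05). IL20, which shares receptors with IL-24, was at 3.69, 3.71 and 3.51 in B6TC, 3.78, 3.78 and 3.97 in MDA-MB-231 and 5.93, 6.46 and 6.90 in ZR-75-1. It reached 6 on fewer than 3 arrays and was not tested, and it was named after its values were seen.

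Counted by gene, the 7 tested members divided in the same way. Against MDA-MB-231, 3 of 7 were higher in B6TC (IL1B, IL11 and CSF3) by limma, none was lower (0 also at an unadjusted p under 0.05, and LIF with robust regression) and 4 were not called, where 65.0% of all tested genes were called. By probe set, 6 of 15 were higher and 4 were lower, where 65.1% of all probe sets were called, 33.9% as higher and 31.3% as lower. Only IL1B differed by at least 2-fold, as did 3.75% of all genes. The median difference of the 7 genes was 0.068, beside 0.036 over all tested genes. IL1B and CSF3 reached 6 in B6TC only and passed the filter through that line, so a lower level in B6TC could hardly be found for them. Averaging all probe sets per gene gave 2 genes higher and 1 lower, with CSF1 lower and IL11 not called.
Against ZR-75-1, 7 of 7 members were higher in B6TC, where 84.4% of all tested genes were called and 42.8% were higher, and 6 of them were at least 2-fold higher, as were 17.6% of all genes. Of the probe sets, 15 of 15 were higher, where 83.7% were called in either direction and 43.0% were higher. The median difference was 1.68, beside −0.0050 over all tested genes. Between the parental lines, 6 of 7 were higher in MDA-MB-231 than in ZR-75-1, where 84.4% of all genes were called and 42.5% were higher, with a median of 1.60, and 14 of 15 probe sets were higher, where 83.7% were called and 43.8% were higher. The comparisons with ZR-75-1 share its arrays, and most of these genes passed the filter only through the lines in which they were high, so the counts describe the members and test nothing more about them. Without a filter, 8 of 9 members were higher in B6TC than in ZR-75-1, and IL1A was the one not called, where 48.1% of all unfiltered probe sets were called in either direction.
On a scale with MDA-MB-231 at 0 and ZR-75-1 at 1, B6TC lay at −0.046 and −0.0062 for the probe sets of IL11, 0.051 for LIF and 0.0041 for IL24. It lay between −0.26 and 0.22 for IL6ST and at −0.042, 0.26 and 0.44 for CSF1. ZR-75-1 was under 6 for IL11, LIF and IL24, which limits these places. The same holds for CSF1 at 210557_x_at and 211839_s_at, the places of 0.26 and 0.44, and for IL6ST at 204863_s_at. IL1B has no such place, since the parental lines were nearly alike and B6TC was outside both.

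Known regulators of cytokine transcription and mRNA decay were read as a last group. Of 24 genes, 23 were on the array and 22 were tested. In B6TC, 11 were higher than in MDA-MB-231, 7 were lower and 4 were not called, and 13 were higher than in ZR-75-1, 3 were lower and 6 were not called. The called shares over all tested genes were 65.0% against MDA-MB-231 (36.5% as higher) and 84.4% against ZR-75-1 (42.8% as higher).
FOSL1, the AP-1 subunit FRA1, was at 10.38, 10.41 and 10.35 in B6TC, 10.62, 10.53 and 10.52 in MDA-MB-231 and 5.03, 4.73 and 5.15 in ZR-75-1. B6TC was 5.41 above ZR-75-1 (SE 0.092, limma adjusted p = 7.22e-12) and differed from MDA-MB-231 by −0.18, which was not called (limma adjusted p = 0.115). HMGA2, an architectural chromatin protein, was higher than in ZR-75-1 by 4.52 (SE 0.080, limma adjusted p = 9.38e-12), and its relative HMGA1 by 2.03. DUSP1, a phosphatase of MAP kinases, exceeded ZR-75-1 by 2.13. FOSL1, HMGA2, HMGA1 and DUSP1 had the parental order of IL11.
NFKBIZ, the nuclear inhibitor IκBζ that acts with NF-κB at inflammatory genes, was, like IL1B, higher in B6TC than in either parental line. Its level was 7.96, 8.07 and 8.07 in B6TC, 7.47, 7.26 and 7.27 in MDA-MB-231 and 7.25, 7.40 and 7.45 in ZR-75-1. The B6TC arrays lay above all parental arrays, by 0.70 from MDA-MB-231 (SE 0.074, limma adjusted p = 2.04e-05) and 0.67 from ZR-75-1 (SE 0.074, limma adjusted p = 1.01e-05), and the parental lines overlapped (limma adjusted p = 0.697). NFKBIA, the inhibitor IκBα, was at 9.83, 9.91 and 9.82 in B6TC, 9.19, 9.19 and 9.18 in MDA-MB-231 and 9.75, 9.90 and 9.75 in ZR-75-1. B6TC was 0.66 above MDA-MB-231 (SE 0.053, limma adjusted p = 3.22e-06) but overlapped ZR-75-1.
ATF3, a stress-induced repressor, was at 5.60, 5.45 and 5.66 in B6TC against 6.74, 6.56 and 6.49 in MDA-MB-231. The difference was −1.03 (SE 0.078, limma adjusted p = 2.36e-06), and ATF3 in ZR-75-1, at 5.51, 5.36 and 5.45, overlapped B6TC. HNRNPD, the mRNA decay factor AUF1, was 0.73 above MDA-MB-231 in B6TC (SE 0.053, limma adjusted p = 1.8e-06) and 0.22 above ZR-75-1.
Between the parental lines, MDA-MB-231 was higher than ZR-75-1 at 5 and lower at 5 of the 10 tested genes of the IL-1 pathway, higher at 8 and lower at 6 of 15 in the gp130 pathway, and higher at 13 and lower at 7 of 22 regulators. Over all tested genes 84.4% were called in this comparison and 42.5% were higher. Genes of these lists thus differed in both directions, as tested genes did at large. Of the 7 tested members, 6 were higher in MDA-MB-231, but most passed the filter only through the lines in which they were high. CASP4, IL18 and IRAK2 were higher in MDA-MB-231 by 3.69, 3.19 and 2.36, and IL31RA by 3.38. IL1R1, at −2.79, PIAS3, at −2.70, IL6R, at −1.79, and LIFR, at −1.57, were lower. FOSL1, HMGA2 and HMGA1 were higher by 5.59, 5.01 and 2.26, and REL, an NF-κB subunit, was lower, at −2.24. KITLG was at −3.55 and STAT5B, FLT3LG and STAT5A were higher by 1.58, 0.97 and 0.75, while IL10RB was at −0.72.

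**Figure D4:**
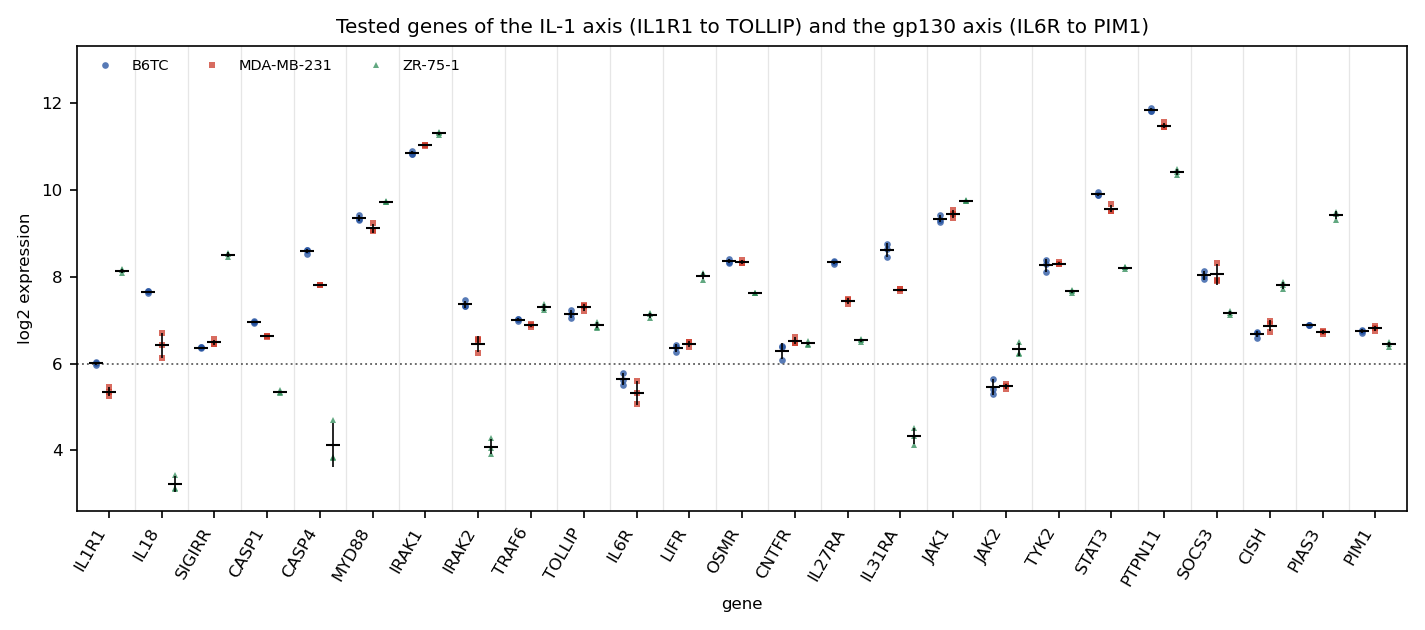
The log2 level (vertical axis) of the tested genes of the IL-1 and gp130 pathway lists (horizontal axis), 1 probe set per gene, on the 9 arrays. The mean and SD of each line (n = 3 arrays) and the filter level of 6 as a dotted line are shown. IL18, CASP4, IRAK2 and IL31RA are highest in B6TC and lowest in ZR-75-1, whereas IL1R1, LIFR, IL6R and PIAS3 are highest in ZR-75-1.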

How the data were processed

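Total RNA of near confluent cells was labeled with a one-cycle biotin protocol and hybridized in triplicate per line. The authors deposited log2 expression levels. The submitters' notes credit RMA in Affymetrix Expression Console for them and the methods GC-RMA. Versions of these are not given in the sources used here, and which background correction was used cannot be told from the values. Symbols came from the platform annotation and were updated by gene identifier to GRCh38.p14. Of the probe sets, 41091 had 1 symbol, 1801 had several and 11721 had none, after 62 controls were left out. limma 3.58.1 (R 4.3.3) fitted a mean for each line over 9 arrays (6 residual and 3.68 prior degrees of freedom) and no covariate, and adjusted by Benjamini and Hochberg over 21095 probe sets. The procedure was tested on simulated data. All members, all their receptors, up to 4 called genes with the largest change per list and comparison, and the 5 genes most like the member with the widest range are named. The members and lists were chosen with earlier results of these data known. Alternatives were other filters on level, robust regression, trended variances, median centering, quantile normalization, the compared lines only, no shared probe sets, 1 probe set per gene or their mean, a fold minimum, a replicate block and leaving out each array. The number of arrays limits the precision.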

Additional observations from a re-analysis of the deposited data

How the results depend on the processing

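The number of members called was 3 for B6TC against MDA-MB-231 on leaving out any single array, 7 for B6TC against ZR-75-1, and 6 to 7 for MDA-MB-231 against ZR-75-1. With a minimum of 2-fold, 1 member was called for B6TC against MDA-MB-231 in place of 3. The replicate numbers did not pair the arrays, since deviations of same-numbered arrays of different lines correlated between −0.10 and 0.18, and with a replicate block 3, 7 and 6 members were called. Averaging all probe sets per gene turned CSF1 to −0.29, PTPN11 to −0.20 and HMGA2 to 0.067 for B6TC against MDA-MB-231 and HNRNPD to 0.14 for MDA-MB-231 against ZR-75-1. The cause was not tested. Over all alternatives that kept every array, the values of member probe sets kept their direction and side of the threshold in 543 cases, lost the call in 19, gained it in 4 and turned in the 1 case of CSF1. On leaving out 1 array they kept it in 392 cases, lost it in 12 and gained it in 1. Counts over the pathway lists moved by over 1.5 times in 24 cases and not in 171. The list of regulators had 8 genes called for B6TC against MDA-MB-231, of 13 tested, without probe sets that may bind several transcripts. Levels under 6, near background, limit IL1A and IL6 in every line, IL1B and CSF3 in both parental lines, and IL11, LIF and IL24 in ZR-75-1. They also limit CSF1 at 210557_x_at (mean 4.99) and 211839_s_at (5.72) and IL6ST at 204863_s_at (5.52) in ZR-75-1.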
